A study of Mus musculus with 8 samples.

Results

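The oligodendrocyte lineage of the adult mouse median eminence (ME) was examined from its precursors (OPCs) to its mature, myelin-forming cells. Cells were taken as members if their transcripts of Olig1, Olig2 and Sox10, counted as unique molecular identifiers (UMIs), summed to at least 3, which selected 106 of the 990 cells of the single-cell library, or 10.7% (exact 95% interval 8.85 to 12.8%). Each member was then placed by the set with the most UMIs among Pdgfra and Cspg4 (precursor), Gpr17 and Enpp6 (committed) and Mog, Opalin and Ermn (mature), with at least 2 UMIs of that set required. This gave 31 precursor, 25 committed and 45 mature cells, and left 5 members unresolved. Members were thus selected on their measured UMIs of 3 genes and classed by those of 7 more, so the levels below are descriptions of 1 library and carry no test.

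The study characterised the tanycytes of the ME and their neighbouring cells, and the tumors that arise when an activated BRAF kinase is switched on in Rax-expressing cells. The single-cell library was made from the MEs of 10 wild-type (WT) female mice labelled C57BL/6 (C57BL/6N in the study's methods) at the age of 2 months, which were pooled, so animals could not be separated. Bulk RNA sequencing covered the ME of 3 WT control mice and of 4 Rax::BrafV600E mutant mice (Rax-CreERT2::BrafV600E in the study's methods), all with the same strain label and labelled as 2 months old, with 1 mouse per library. In the mutants, a tamoxifen-activated Cre recombinase expressed from Rax, a transcription factor gene of tanycytes, turned on the mutant Braf allele in adult animals, and tissue was taken 2 months after induction. The sex of the bulk mice, and whether the controls carried Cre, is not given in the sources used here. The study's methods place control and mutant tissue together at 2 months after tamoxifen, without stating separately that the controls received it.

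Oligodendrocytes wrap axons in myelin and descend from OPCs, which persist in the adult brain and remain able to divide. OPCs depend on platelet-derived growth factor, sensed by the receptor that Pdgfra encodes, and carry the NG2 proteoglycan encoded by Cspg4. On leaving the cell cycle they pass through a short committed state marked by the receptor Gpr17 and the phosphodiesterase Enpp6, before the regulator Myrf switches on the genes of the myelin sheath. Olig1, Olig2 and Sox10 encode transcription factors that are kept through all of these states.

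The stage genes were first placed on the genome (GRCm38). Olig2 (chr16:91225457-91228677) and Olig1 (chr16:91269772-91271933) are neighbours on the plus strand, and Sox10 lies on the minus strand at chr15:79154908-79165240. The 250 bases before the RefSeq start (GRCm38.p6) are shown for the precursor gene Pdgfra (chr5:75152001-75152250, plus strand), the committed gene Enpp6 (chr8:46986637-46986886, plus strand) and the mature genes Mog (chr17:37023399-37023648, minus strand), Opalin (chr19:41077114-41077363, minus strand) and Ermn (chr2:58052865-58053114, minus strand), since these genes set the order of the cells. Each is written 5′ to 3′ on the strand of its gene, and capitals mark any match, on either strand, to CTGGCAC, a motif of Myrf, or to ACAAAG or ACAATG, motifs of SOX factors.
Pdgfra: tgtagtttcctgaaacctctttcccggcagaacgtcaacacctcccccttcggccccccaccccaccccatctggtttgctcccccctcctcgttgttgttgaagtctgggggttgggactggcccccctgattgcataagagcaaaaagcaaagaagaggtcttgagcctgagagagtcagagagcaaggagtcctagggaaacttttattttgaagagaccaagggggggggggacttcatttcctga
Enpp6: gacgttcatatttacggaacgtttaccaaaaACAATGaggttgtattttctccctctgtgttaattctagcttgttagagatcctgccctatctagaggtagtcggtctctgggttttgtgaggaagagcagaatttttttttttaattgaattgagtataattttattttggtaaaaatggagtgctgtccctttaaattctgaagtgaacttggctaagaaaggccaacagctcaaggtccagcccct
Mog: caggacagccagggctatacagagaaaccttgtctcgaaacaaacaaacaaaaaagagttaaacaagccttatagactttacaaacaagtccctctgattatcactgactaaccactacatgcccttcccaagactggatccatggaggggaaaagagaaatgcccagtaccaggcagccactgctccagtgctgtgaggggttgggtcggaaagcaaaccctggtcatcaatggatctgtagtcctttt
Opalin: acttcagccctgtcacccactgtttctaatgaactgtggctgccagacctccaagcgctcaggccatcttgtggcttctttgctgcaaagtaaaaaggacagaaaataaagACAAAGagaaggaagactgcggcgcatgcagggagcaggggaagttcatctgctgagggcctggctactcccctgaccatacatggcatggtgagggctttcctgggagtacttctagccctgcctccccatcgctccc
Ermn: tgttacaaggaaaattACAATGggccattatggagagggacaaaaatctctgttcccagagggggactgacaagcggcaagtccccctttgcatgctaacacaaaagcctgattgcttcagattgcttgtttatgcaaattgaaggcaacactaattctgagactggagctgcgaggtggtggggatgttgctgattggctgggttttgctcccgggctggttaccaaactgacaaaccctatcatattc
Enpp6 held an ACAATG match 219 bases before its start, Ermn held one at 234 bases, and Opalin held an ACAAAG match at 139 bases. Pdgfra and Mog held none of the 3 motifs in this window. Among 32851 promoters of the same length, CTGGCAC was found in 4.19%, ACAAAG in 16.5% and ACAATG in 10.7%. Promoters of 43 myelin and mature genes held them in 9.30%, 27.9% and 14.0%, respectively, and those of 22 precursor genes in 0%, 18.2% and 0%. For 19 committed genes the shares were 0%, 26.3% and 26.3%. A match is only a match of letters, and a window without one says nothing about the factor.

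Most members lay well above the limit on the 3 selecting genes, a description only, since the same UMIs selected them. Of the 106 members, 96 had at least 10 UMIs of the 3 genes and 10 had between 3 and 9. Of all 990 cells, 743 had none and 120 had 1. All 106 members had an Olig1 UMI, 100 had Olig2 and 94 had Sox10, and 88 had all 3. Just outside the limit lay 21 cells with 2 UMIs, which had 5624 to 47434 UMIs in all (median 21397, against 11508 in members) and at most 5 UMIs of the precursor, 1 of the committed and 3 of the mature set. Just inside lay 4 cells with 3 UMIs. Of these, 2 were shallow committed cells with 5 UMIs of Gpr17 and Enpp6 each, and 2 were among the unresolved cells.

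The members were checked against the stage genes and against markers of other cell types. No cell outside the members reached 5 UMIs of the committed or of the mature set, whereas 24 non-members reached 5 UMIs of the precursor set. The latter carried Pdgfra, which vascular and leptomeningeal cells also express, and in the UMIs pooled over the 884 other cells Pdgfra was at 52.3 counts per 1000000 (CPM) against 1.19 CPM for Cspg4. In 241 cells with at least 10% haemoglobin UMIs, which should lack these genes, the precursor, committed and mature sets were still seen in 7.05%, 3.32% and 14.5% of cells (median 7884 UMIs), and these shares give the level of free RNA. The doublet caller Scrublet marked 3 of the 990 cells and no member; doublets were not removed, and some may remain undetected.

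The 5 unresolved members were of 2 kinds. Stage genes were too few in 3 shallow cells with 3391, 3628 and 4091 UMIs, which had 14, 13 and 14 Olig1 UMIs and 3, 2 and 13 UMIs of the precursor gene Ptprz1. The other 2 cells were deep, with 34779 and 40357 UMIs, and each had 3 UMIs of the selecting genes. One of them carried 127 UMIs of neuron markers, and the other 4136 UMIs of pars tuberalis markers, led by Chga (1557) and Cga (1545). A mature cell of 35651 UMIs also had 53 UMIs of tanycyte markers beside 158 UMIs of the mature set, against at most 7 in any other mature cell. Without the 5 unresolved cells, 1007 genes were at least 4-fold higher in the lineage than in other cells, against 988 with them.

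The stage genes set the classes, and their spread within each class was wide. Precursor cells had 3, 9 and 23 UMIs (lowest, median and highest) of Pdgfra and Cspg4, committed cells 5, 36 and 64 UMIs of Gpr17 and Enpp6, and mature cells 6, 69 and 301 UMIs of Mog, Opalin and Ermn. Neighbouring stages overlapped. The committed set was seen in 21 of 31 precursor cells and in 27 of 45 mature cells, and the mature set in 12 of 25 committed cells. Distant stages did not overlap beyond single UMIs, since no member had 2 or more UMIs of both the precursor and the mature set, although 11 members had at least 1 of each. Gpr17 and Enpp6, pooled as 1 stage, behaved differently. Gpr17 was seen in 21 of 31 precursor cells and 9 of 45 mature cells, whereas Enpp6 was seen in 0 of 31 precursor cells, which allows a share of up to 9.68%, and in 24 of 45 mature cells. That limit (3 counts of the total) is for cells with a UMI, not for cells expressing the gene. These shares depend on depth: with each cell thinned to 3000 UMIs, Gpr17 was seen in 41.6% of precursor and 7.48% of mature cells, and Enpp6 in 18.9% of mature cells.

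**Figure D1:**
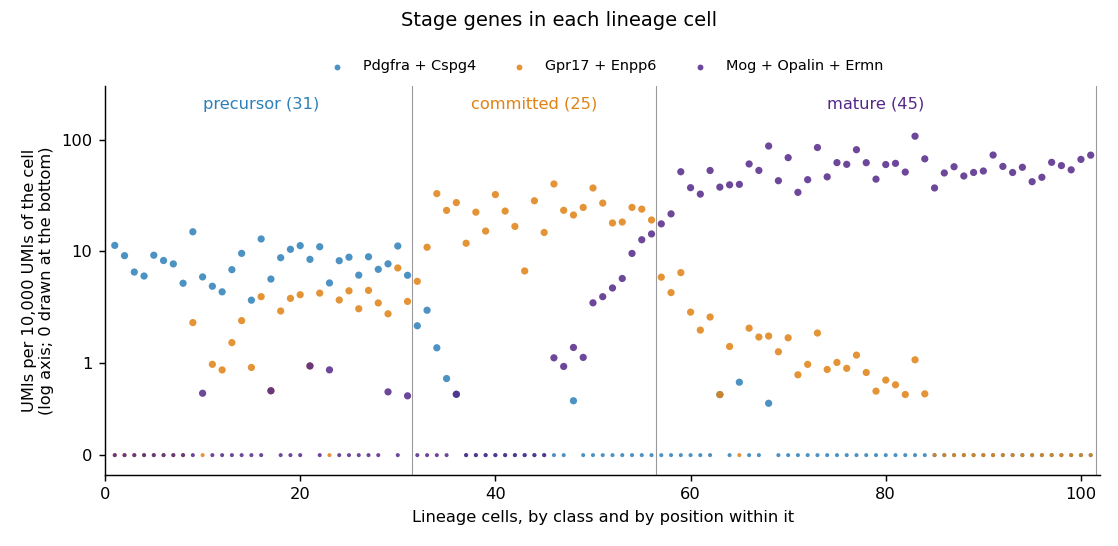
Stage genes in each of the 101 classified lineage cells. Each position on the x axis is a cell, the y axis is the UMIs of a stage set per 10,000 UMIs of that cell (log axis, with 0 drawn at the bottom), and colours mark the 3 sets. The precursor and mature sets exchange places across the 25 committed cells, and no cell holds both beyond single UMIs.

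Precursor cells were set apart by surface and matrix molecules of OPCs and by genes of cell division. Of 25 precursor genes listed, 24 could be compared with mature cells (at least 20 UMIs over both classes) and all 24 were at least 4-fold higher. Over all genes compared, 11.7% were 4-fold or more higher in precursor cells and 7.37% were 4-fold or more lower, and since the same cells set the classes nothing is read from the difference. Ptprz1, a receptor phosphatase of OPCs, was at 1774 CPM (1634 to 1922) in precursor, 484 CPM in committed and 13.1 CPM in mature cells (95% Poisson interval; intervals here cover counting error only). The neural chondroitin sulfate proteoglycan Cspg5 was at 2186, 167 and 42.1 CPM, and C1ql1, a secreted complement-like protein, at 809.8, 257 and 1.45 CPM in the same order. These genes differed in their committed level. Cspg5 was 167 CPM there, whereas Tnr (tenascin-R) was at 323 CPM in precursor and 953 CPM in committed cells, and the sialidase gene Neu4 at 261 and 388 CPM.

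Receptors and channels differed among themselves. Of the 31 listed ion channels and transmitter receptors, 12 could be compared, 7 were 4-fold or more higher in precursor than in mature cells and 1 was lower, beside 11.7% and 7.37% of all genes. The AMPA receptor subunit gene Gria2 was at 424, 563 and 17.4 CPM in precursor, committed and mature cells, and the metabotropic glutamate receptor gene Grm5 at 163, 19.8 and 1.45 CPM. The exception was Kcna1, which encodes a potassium channel, at 29.7, 136 and 538 CPM. Of the 20 listed Notch and Wnt genes, 4 could be compared (Notch1, Dll1, Dll3 and Fzd9), and all 4 were higher in precursor cells by that measure. A gene could pass the limit of 20 UMIs through the precursor cells alone, as Dll1 did with 25 UMIs there. Nothing is therefore read from this count. Dll3, a Notch ligand, was at 74.2 CPM in precursor cells and had no UMI in mature cells.

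Division was concentrated in a few precursor cells. Of the 53 listed G2 and M phase genes, 47 could be compared between precursor and mature cells. Of these, 42 were 4-fold or more higher in precursor cells (11.7% over all genes). Only Anln, which is also on the list of myelin and mature genes, was lower. Here too genes could pass the limit on UMIs through the precursor cells alone, and 27 of the 53 had no UMI in mature cells. The count of higher genes is therefore a description from which nothing is read. Mki67, a marker of cycling cells, was seen in 9 of 31 precursor cells (29.0%, exact 95% interval 14.2 to 48.0%), 2 of 25 committed and 3 of 45 mature cells, and in 2 of the 884 other cells. Only precursor cells had 5 or more Mki67 UMIs, and 5 of them did. The precursor cells held 90% of the 80 Mki67 UMIs and 91.8% of the 257 Top2a UMIs of the whole library. None of 267 non-member cells with at least 3 UMIs of the tanycyte genes Rax, Scn7a and Col25a1 had an Mki67 UMI, which allows a share of cells with a UMI of up to 1.12%.

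The summed G2 and M phase genes gave a second view of the same cells. Their median was 14.4 UMIs per 10,000 UMIs in precursor, 12.2 in committed and 8.05 in mature cells, but the highest precursor cell was at 520.5, the highest committed cell at 21.4 and the highest mature cell at 14.9. Above 100 per 10,000, a limit chosen after the values were seen, lay 8 precursor cells, 1 unresolved cell and 0 of 884 other cells, where the highest was 60.3. The unresolved cell, at 466 per 10,000, was a shallow one with 13 Olig1 and 7 Top2a UMIs. In the 5 precursor cells with at least 5 Mki67 UMIs, Pdgfra and Cspg4, which placed them in the class, were at 879 CPM. They were at 781 CPM in the 22 precursor cells without Mki67, and at 681 CPM in the 4 with 1 to 4 Mki67 UMIs. Depth differed with this split, as the 5 cells had a median of 17801 UMIs and the 22 cells 10052.5, and its part in these values was not tested.

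**Figure D2:**
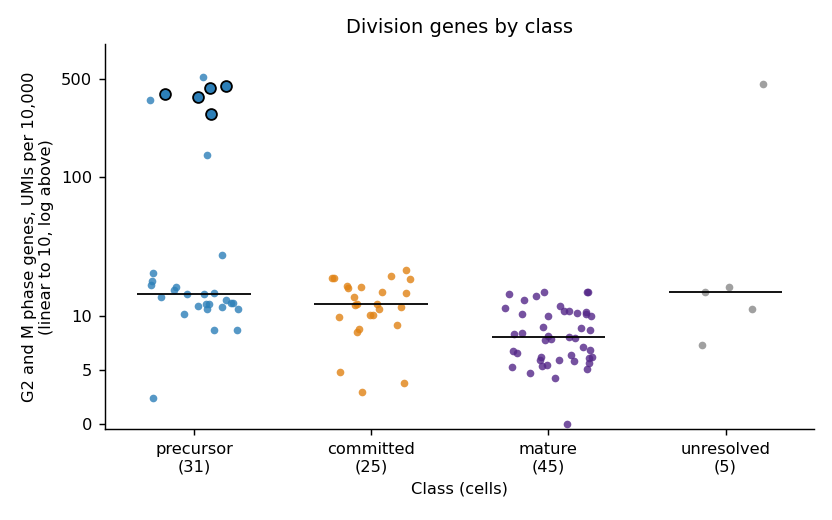
Summed UMIs of 53 G2 and M phase genes per 10,000 UMIs of each lineage cell (y axis, linear to 10 and log above), by class with the number of cells. Points are cells, lines are medians, and outlined points are the 5 cells with at least 5 Mki67 UMIs; the 9 cells above 100 are 8 precursor cells and 1 unresolved cell.

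Ccnd1, Cdkn2c and Cdkn1a, genes of cell cycle entry and exit, were highest in precursor cells. Ccnd1 (cyclin D1) was found in all 31 precursor cells at 940.3 CPM (839.6 to 1049.7), against 14.1 CPM in committed and 8.70 CPM in mature cells, so it was not limited to the cells with Mki67. The inhibitor genes Cdkn2c and Cdkn1a were at 395 and 299.6 CPM in precursor cells, at 34.0 and 8.49 CPM in committed cells and at 8.70 and 20.3 CPM in mature cells. Cdkn1b, the p27 inhibitor gene, was at 50.4, 31.1 and 49.3 CPM across the 3 classes, with overlapping intervals. The 10 leading genes of precursor cells by ratio to the other 2 classes were of division (Prc1, Cdk1, Cenpa, Ube2c, Cdca8, Cdca3, Spc25, Top2a, Tpx2 and Cenpf), among them Top2a, 243-fold (82.3 to 1189) higher, and Ube2c, 352-fold (119 to 1714) higher. Each was seen in only 7 to 11 of the 31 precursor cells, so these ratios rest on a part of the class.

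Committed cells were marked by genes of newly forming oligodendrocytes. Of 22 listed genes, 20 could be compared with precursor and mature cells pooled, and 16 were 4-fold or more higher and none lower; over all genes compared, 2.42% were higher and 5.73% lower. Bmp4, a secreted growth factor, led the listed genes at 617 CPM (538 to 704), 79.2-fold (39.5 to 186) above the pooled precursor and mature cells, and was seen in 19 of 25 committed cells, 4 of 31 precursor and 2 of 45 mature cells. Committed cells held 57.7% of all Bmp4 UMIs of the library. Fyn, a kinase that acts in the start of myelination, was at 125, 2501 and 55.1 CPM in precursor, committed and mature cells. Sirt2, a tubulin deacetylase, was at 344, 5316 and 1784 CPM, and Bcas1, a marker of newly forming oligodendrocytes, at 199, 1143 and 302 CPM. Other leading genes were Gng4, Sept5, Rgs16, Mycl, Rassf10, Gp1bb, 9530059O14Rik and Pdcd4; of these, the MYC family gene Mycl was at 523 CPM in 22 of 25 cells, whereas the G-protein regulator gene Rgs16 rested on 3 cells.

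Within the committed class, cells were split by the share of mature-set UMIs among stage UMIs, at 0.1, a value set after the cells were seen. The 19 cells below it and the 6 cells above it differed in depth (median 10569 and 23146 UMIs). Gpr17 was at 1651 CPM (1489 to 1824) in the 19 cells and 585 CPM (457 to 738) in the 6. Enpp6 was at 642 and 1631 CPM. These 2 genes define the class and enter the share used for the split, so nothing is read from their directions. Ptprz1 was at 651 and 165 CPM, and Myrf at 51.7 and 198 CPM. Myelin genes did not appear together. Mbp, which encodes myelin basic protein, was at 2465 and 18104 CPM, and Cldn11, a tight junction protein of myelin, at 1237 and 5897 CPM. These late values rested on 2 of the 6 cells, with 914 and 738 Mbp UMIs, and the other 4 cells pooled to 7553 CPM for Mbp and 2504 CPM for Cldn11. By contrast, Mal, a proteolipid of compact myelin, was at 21.5 and 8.24 CPM. Ermn had no UMI in either group of committed cells. It belongs to the mature set that placed the cells and entered the split, so nothing is read from its absence.

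**Figure D3:**
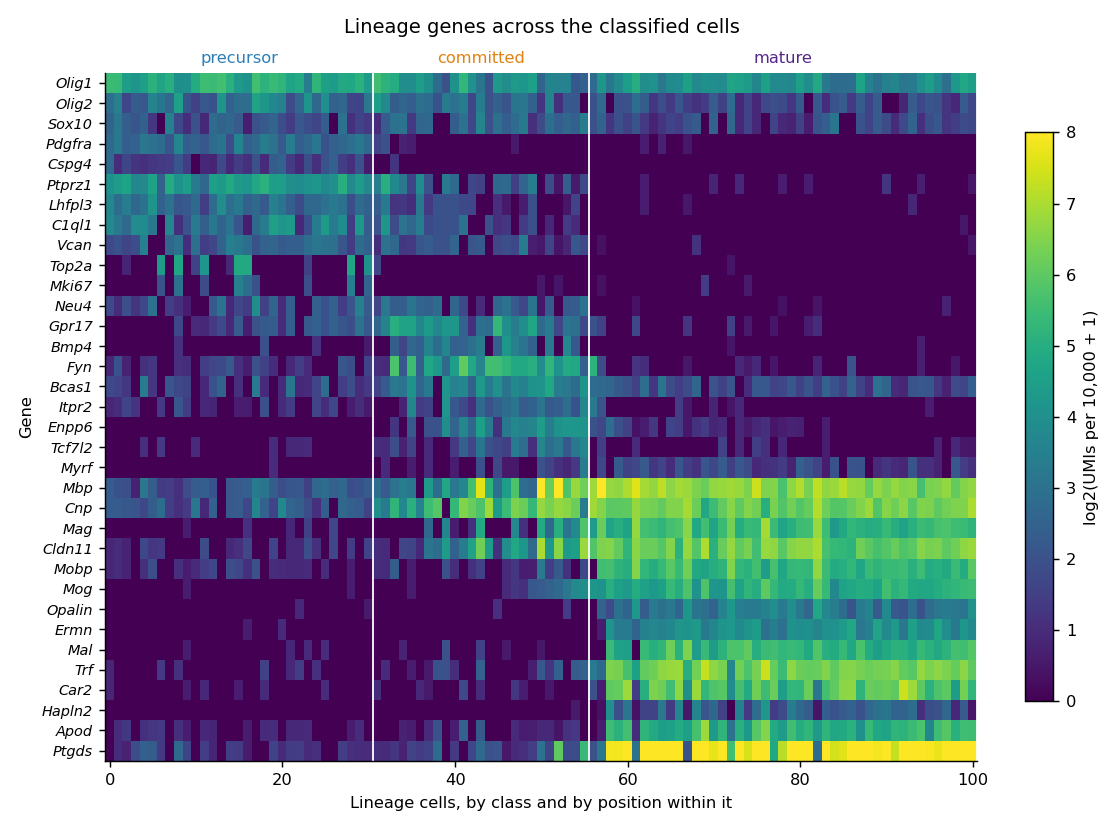
Levels of 34 lineage genes (rows) in the 101 classified cells (columns, by class and position), as log2(UMIs per 10,000 + 1) with colours ending at 8. Bmp4 and Fyn fill the committed block, Mbp, Cnp and Cldn11 begin within it, and Mal and Car2 begin in the mature block. Enpp6 also fills the committed block and Ermn begins in the mature block, but both helped to set the classes.

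Mature cells were rich in myelin transcripts. The 43 listed myelin and mature genes summed to 124164 CPM there, against 4455 CPM in precursor and 37278 CPM in committed cells. Of 43 listed myelin and mature genes, 42 could be compared, 38 were at least 4-fold higher in mature than in precursor cells and none lower, beside 7.37% and 11.7% of all genes. Mbp was at 11533 CPM in mature cells and at 7837 CPM in committed cells, and was at 49.1, 103 and 325 UMIs per 10,000 among mature cells (lowest, median and highest) and at 0, 19.4 and 399 among committed cells, where 3 of 25 cells held 67.4% of the Mbp UMIs. In precursor cells it was at 365 CPM, beside 318 CPM in haemoglobin-rich cells, and 77.2% of the latter had an Mbp UMI. The genes differed in their level in the committed class. Cnp was at 5944 CPM in committed and 8282 CPM in mature cells, and Cldn11 at 2838 and 8069 CPM. Trf (transferrin) was at 130.1 and 6823 CPM, Mal at 17.0 and 3823 CPM, and the gap junction gene Gjb1 at 2.83 and 410.4 CPM.

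Genes known to vary among mature oligodendrocytes were spread unevenly over the 45 cells. Ptgds (prostaglandin D synthase) was at 2.94, 289 and 625 UMIs per 10,000 (lowest, median and highest), a wider spread than that of Cldn11 (33.0, 70.5 and 129.7). Car2 (carbonic anhydrase) was found in all 45 cells and Hapln2, a link protein of the node of Ranvier, in 43. Il33, an alarmin, was found in 16 of 45, Grm3 in 23 and Klk6, a protease of some oligodendrocytes, in 9. Grm3 and Klk6 had no UMI in precursor or committed cells, and among the 884 other cells Klk6 had none and Grm3 had 1. Car14, another carbonic anhydrase, led the mature genes by ratio at 444 CPM and was present in 44 of 45 cells. The other 9 leading genes were Gjb1, Mal, Hapln2, Car2, Ndrg1, Ppp1r14a, Pdlim2, Efhd1 and Unc5b.

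Transcription factors showed 3 patterns. Of 24 listed, 19 could be compared between precursor and mature cells, with 8 at least 4-fold higher in precursor and 5 in mature cells (11.7% and 7.37% over all genes). Sox6 and Sox5 were higher in precursor and committed than in mature cells, Sox6 at 189.8, 209 and 5.80 CPM and Sox5 at 77.1, 48.1 and 2.90 CPM in precursor, committed and mature cells. Tcf7l2 and Nkx2-2 peaked in committed cells, Tcf7l2 at 20.8, 444 and 34.8 CPM and Nkx2-2 at 107, 257 and 13.1 CPM. Myrf, at 2.97, 102 and 191 CPM, and the homeobox gene Nkx6-2, at 5.93, 70.7 and 483 CPM, were highest in mature cells. The selecting genes did not move together either. Olig1 was at 2747, 1511 and 1672 CPM and Olig2 at 709, 574 and 281 CPM, whereas Sox10 was at 317, 478 and 242 CPM.

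**Figure D4:**
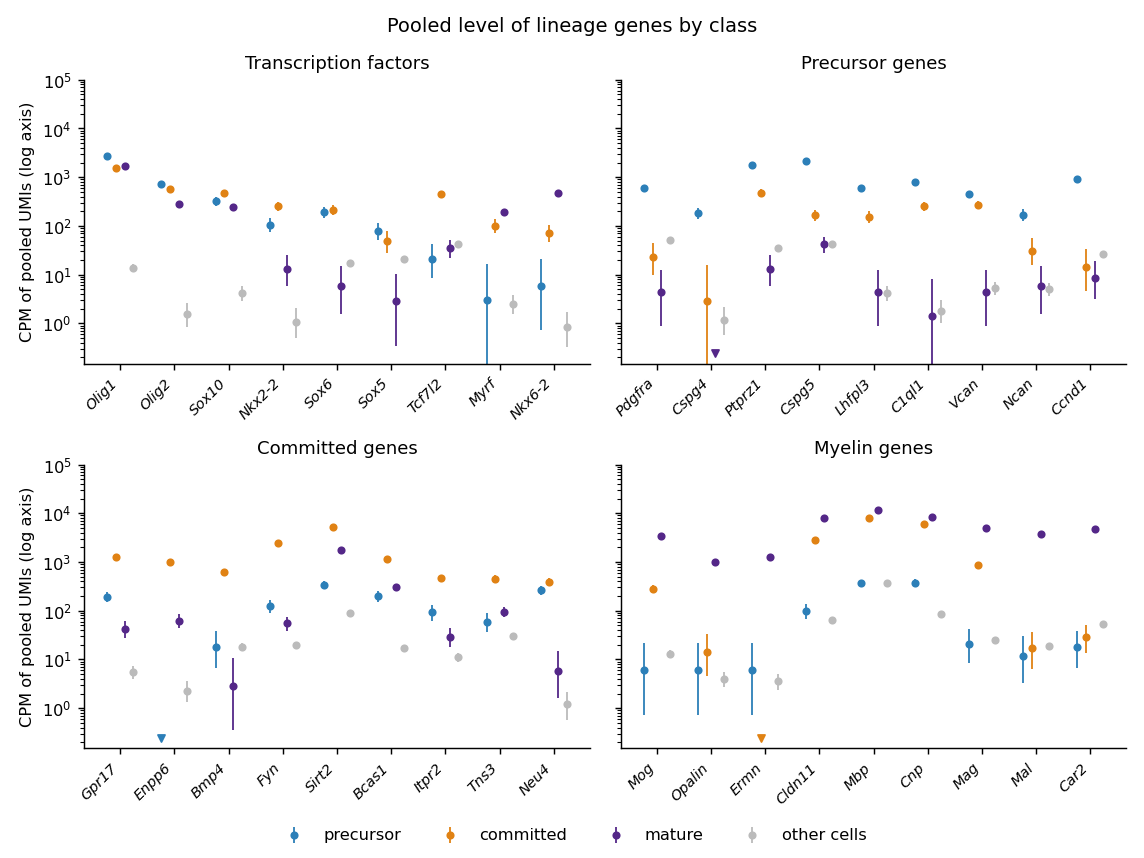
Pooled level of 36 genes in the 31 precursor, 25 committed and 45 mature cells and the 884 other cells, as CPM of pooled UMIs (y axis, log). Points carry 95% Poisson intervals for counting error, and triangles at the bottom mark 0 UMIs; Tcf7l2, Gpr17, Enpp6 and Bmp4 are highest in committed cells, and Myrf, Nkx6-2 and the myelin genes in mature cells.

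Cholesterol is a main lipid of myelin, and its synthesis genes were higher in the lineage than in other cells. The 24 listed genes of its synthesis summed to 1732 CPM (1595 to 1879) in precursor, 2623 CPM (2457 to 2797) in committed and 3717 CPM (3574 to 3863) in mature cells, and to 458 CPM in other cells. Hmgcs1, an early enzyme of the pathway, was at 214, 405 and 825 CPM. The epoxidase gene Sqle was at 136, 156 and 132 CPM, with overlapping intervals.

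Against the other 884 cells, 7.53% of all genes compared were 4-fold or more higher in the lineage and 10.2% lower, a description since the rule used these cells. All counts of listed genes follow from that choice. Of the myelin and mature genes 41 of 43 were higher, of the precursor genes 23 of 25, of the committed genes 17 of 20 and of the cholesterol genes 19 of 24. Olfml3, on the precursor list, was lower in the lineage. Genes outside the lists that led by ratio were C1ql3, Gsx1, S100a3, Insc, Wfdc18 and Nkain2, with Hmmr and Kif20a of the division genes. Gsx1, a homeobox gene, was at 55.9 CPM in 23 of 106 members and at 0.239 CPM in other cells.

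Markers of other cell types were compared with the levels in other cells. The 8 tanycyte markers summed to 136, 108 and 169.7 CPM in precursor, committed and mature cells, against 88.4 CPM in haemoglobin-rich cells and 3702 CPM in cells with tanycyte genes. Without the 1 mature cell with 53 such UMIs, the mature value was 97.9 CPM. Haemoglobin transcripts were present in every class, and the erythrocyte markers summed to 3622, 3941 and 3111 CPM. The 7 neuron markers summed to 442, 141 and 259.6 CPM, with Tubb3 the most abundant, against 348 CPM in other cells and 21.4 CPM in haemoglobin-rich cells. Among them Elavl4, a neuronal RNA-binding protein, was at 101 CPM and seen in 18 of 31 precursor cells, against 35.1 CPM in other cells; the part of neuronal RNA in the precursor values was not tested. Immediate early genes, which respond to stimulation and to tissue dissociation, summed to 13517 CPM in precursor, 3392 CPM in committed and 7181 CPM in mature cells, and their part in the differences between classes was not tested.

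The bulk libraries asked how these genes stood in ME tissue with and without the Braf mutation. Before the values, 3 libraries stood apart. Control 2, control 3 and mutant 1 had the fewest detected genes (21986, 17874 and 25910, against 34942 to 40852 in the other 4), although they had 12209728, 13816596 and 10754670 reads, the highest totals. Control 3 also correlated least with the others (0.814 to 0.863 on the log scale, across genes, which are not independent replicates). Results that rest on them are given below also with the number of detected genes as a covariate and without these 3 libraries, both chosen after the data were seen. The labels give no sex for these mice, and the libraries differed in sex-linked transcripts. Xist, the RNA of the inactive X chromosome, had 4, 0 and 8 reads in controls 1 to 3 and 15, 11, 800 and 747 reads in mutants 1 to 4. The Y-linked gene Ddx3y was at 82.5, 82.3 and 69.7 CPM in controls 1 to 3 and 94.2, 118, 0.334 and 0.536 CPM in mutants 1 to 4. Xist was thus high, and Ddx3y near 0, in mutants 3 and 4 alone. Reads of the Y-linked genes Eif2s3y, Kdm5d and Uty numbered 0 to 2 in mutants 3 and 4 and at least 34 elsewhere. By these transcripts the controls and mutants 1 and 2 were male and mutants 3 and 4 female, so sex was not balanced between the groups. Without mutants 3 and 4, an alternative added after the data were seen, the log2 fold change was 2.28 for Ptprz1, 2.65 for Gpr17, 1.80 for Olig1, -1.82 for Mog and -0.88 for Mbp, and no gene was called. In bulk tissue, fewer cells of the lineage and less RNA per cell cannot be told apart.

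Across 20466 genes tested, edgeR's quasi-likelihood test with Benjamini-Hochberg adjustment called none at an adjusted p under 0.05 (0.0%, smallest adjusted p 0.0541), so no gene below passed the test. At an unadjusted p under 0.05, 865 genes (4.23%) were higher and 796 (3.89%) lower in mutants; DESeq2 called 360 genes. In 1194 genes (5.83%) every mutant library lay above every control, and in 650 (3.18%) below. The median log2 fold change of all genes was 0.13. P-values measure the spread between these mice only.

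Most precursor genes stood higher in the mutant ME. Of 25 listed, 23 were higher and 1 lower at an unadjusted p under 0.05, beside 4.23% and 3.89% of all genes. In 14 every mutant lay above every control, beside 5.83% of all genes, and the median log2 fold change was 1.49. The list was drawn up with earlier results of these data known, so these counts are no independent evidence of a direction. Ptprz1 was at 46.1, 62.1 and 64.0 CPM in controls 1 to 3 and 220.3, 334, 292 and 369 CPM in mutants 1 to 4. No control reached a mutant, and the log2 fold change was 2.40 ± 0.31 (SE; edgeR adjusted p 0.0678, unadjusted 1.04e-05). Cspg4, which marks OPCs and also mural cells, was at 8.81, 10.0 and 0 CPM in controls 1 to 3 and 53.7, 34.8, 48.9 and 119.9 CPM in mutants 1 to 4. The groups did not overlap (log2 fold change 3.36 ± 1.03, edgeR adjusted p 0.444). Pdgfra was at 33.6, 65.0 and 46.1 CPM in controls 1 to 3 and 79.8, 61.4, 60.1 and 122 CPM in mutants 1 to 4, and the groups overlapped (log2 fold change 0.74 ± 0.36, edgeR adjusted p 0.643). The one gene lower at an unadjusted p was Olfml3, which in the single-cell library was the listed precursor gene lower in the lineage than in other cells. Some of the list was also seen in other cells, and Bcan, the most abundant of the list in bulk, was at 513 CPM in precursor cells and 347 CPM in cells with tanycyte genes.

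Selecting and committed genes divided the mutants, with mutants 1 and 4 above mutants 2 and 3. Summed, the 22 committed genes were at 879.8, 1113 and 1384 CPM in the controls and 1834, 999.9, 806 and 1856 CPM in the mutants, so mutants 2 and 3 lay among or below the controls. Olig1 was at 149, 425 and 175 CPM in controls 1 to 3 and 1130.4, 601, 515 and 1264 CPM in mutants 1 to 4, every mutant above every control (log2 fold change 1.81 ± 0.48, edgeR adjusted p 0.411). Olig2 and Sox10 overlapped between groups, with log2 fold changes of 2.06 ± 0.91 and 1.41 ± 0.51 (edgeR adjusted p 0.605 and 0.520). Gpr17 was at 32.9, 29.2 and 13.3 CPM in controls 1 to 3 and 224, 92.4, 82.2 and 246 CPM in mutants 1 to 4. All mutants exceeded all controls, and the log2 fold change was 2.68 ± 0.51 (edgeR adjusted p 0.194). Enpp6 was at 12.2, 9.77 and 19.0 CPM in controls 1 to 3 and 50.8, 15.5, 12.7 and 60.9 CPM in mutants 1 to 4. Mutants 2 and 3 lay among the controls, and the log2 fold change was 1.35 ± 0.59 (edgeR adjusted p 0.596). Bmp4 showed the same division, at 8.70, 13.6 and 4.45 CPM in controls 1 to 3 and 37.3, 5.31, 4.68 and 32.7 CPM in mutants 1 to 4 (log2 fold change 1.16 ± 0.78, edgeR adjusted p 0.764), and so did Fyn, at 26.3, 49.0 and 48.6 CPM in controls 1 to 3 and 138, 29.1, 28.7 and 149.6 CPM in mutants 1 to 4. Of the 22 committed genes, 3 were higher and 1 lower at an unadjusted p under 0.05, beside 4.23% and 3.89% of all genes. Their median log2 fold change was 0.53.

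More mature genes stood lower than higher in the mutants, but none passed edgeR's test and these values rested on the libraries that stood apart. Log2 fold changes were negative in 32 and positive in 11 of the 43 myelin and mature genes. They were negative in 8 and positive in 4 of 12 mature subtype genes. Over all 20466 genes, 8859 were negative and 11607 positive. Mog was at 103, 310.4 and 546 CPM in controls 1 to 3 and 92.2, 88.0, 64.1 and 47.0 CPM in mutants 1 to 4. Every mutant lay below every control, but control 1 was close to mutant 1 (log2 fold change -2.13 ± 0.49, edgeR adjusted p 0.325). Mbp was at 3037, 10464 and 4667 CPM in controls 1 to 3 and 3848, 2724, 1658 and 2167 CPM in mutants 1 to 4. Control 1 lay within the range of the mutants, and the log2 fold change was -1.22 ± 0.45 (edgeR adjusted p 0.522). Opalin and Ermn overlapped between groups, at log2 fold changes of -2.07 ± 0.49 and -0.85 ± 0.38 (edgeR adjusted p 0.359 and 0.610). With the number of detected genes as a covariate, the log2 fold change was -0.82 for Mog and -0.45 for Mbp, and without the 3 libraries it was -0.62 and -0.47. The same covariate gave 2.38 for Ptprz1, 2.63 for Gpr17, 2.27 for Olig1, 1.71 for Enpp6, 1.46 for Bmp4 and 1.68 for Fyn. DESeq2, unlike edgeR, called Ptprz1 (adjusted p 2.95e-08), Gpr17 (adjusted p 0.000151), Olig1 (adjusted p 0.0211), Mog (adjusted p 0.00976) and Opalin (adjusted p 0.0174). Without the 3 libraries control 1 is the only control, and its spread is assumed to be that of the mutants; edgeR's adjusted p was then 0.0100 for Ptprz1, 0.138 for Gpr17 and 0.550 for Mog. Of the 43 myelin and mature genes, 14 were lower and 1 higher (Gjc3) at an unadjusted p under 0.05, 4 lay below every control, and the median log2 fold change was -0.46. Of 24 cholesterol genes, 1 was higher and 3 lower by that limit, with a median of -0.18. Over all genes, 4.23% were higher and 3.89% lower by that limit, and 3.18% lay below every control. Nothing is read from the few cholesterol genes.

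Within the lists, the members with the smallest bulk p-values lay in both directions, and none passed the test. Among the precursor genes, Lhfpl3, a tetraspan membrane protein, stood with Ptprz1 (2.74 ± 0.57, edgeR adjusted p 0.247; values here are log2 fold changes with their SE). Among the myelin and mature genes, Ppp1r14a, a phosphatase inhibitor (-2.18 ± 0.54, edgeR adjusted p 0.359), lay below every control in all mutants. The committed list held both directions, with the melanin enzyme gene Dct (2.51 ± 0.85, edgeR adjusted p 0.491) and the kinesin gene Kif19a (1.88 ± 0.70, edgeR adjusted p 0.522) above every control and the small GTPase gene Rras2 (-1.82 ± 0.50, edgeR adjusted p 0.422) below. Of the transcription factors, Nkx2-2 (2.08 ± 0.56, edgeR adjusted p 0.413) and Etv5, an ETS factor (1.93 ± 0.58, edgeR adjusted p 0.440), lay above every control in all mutants. The channel list was led by the potassium channel gene Kcnj16 (3.38 ± 0.58, edgeR adjusted p 0.130) and the kainate receptor gene Grik4 (1.98 ± 0.38, edgeR adjusted p 0.194), both higher in every mutant, whereas the purinergic receptor gene P2rx4 overlapped between groups (-1.04 ± 0.41, edgeR adjusted p 0.543). Of the cholesterol genes, Nsdhl (-1.05 ± 0.40, edgeR adjusted p 0.526) and Mvk (-0.77 ± 0.30, edgeR adjusted p 0.536) had the smallest p-values on the lower side.

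**Figure D5:**
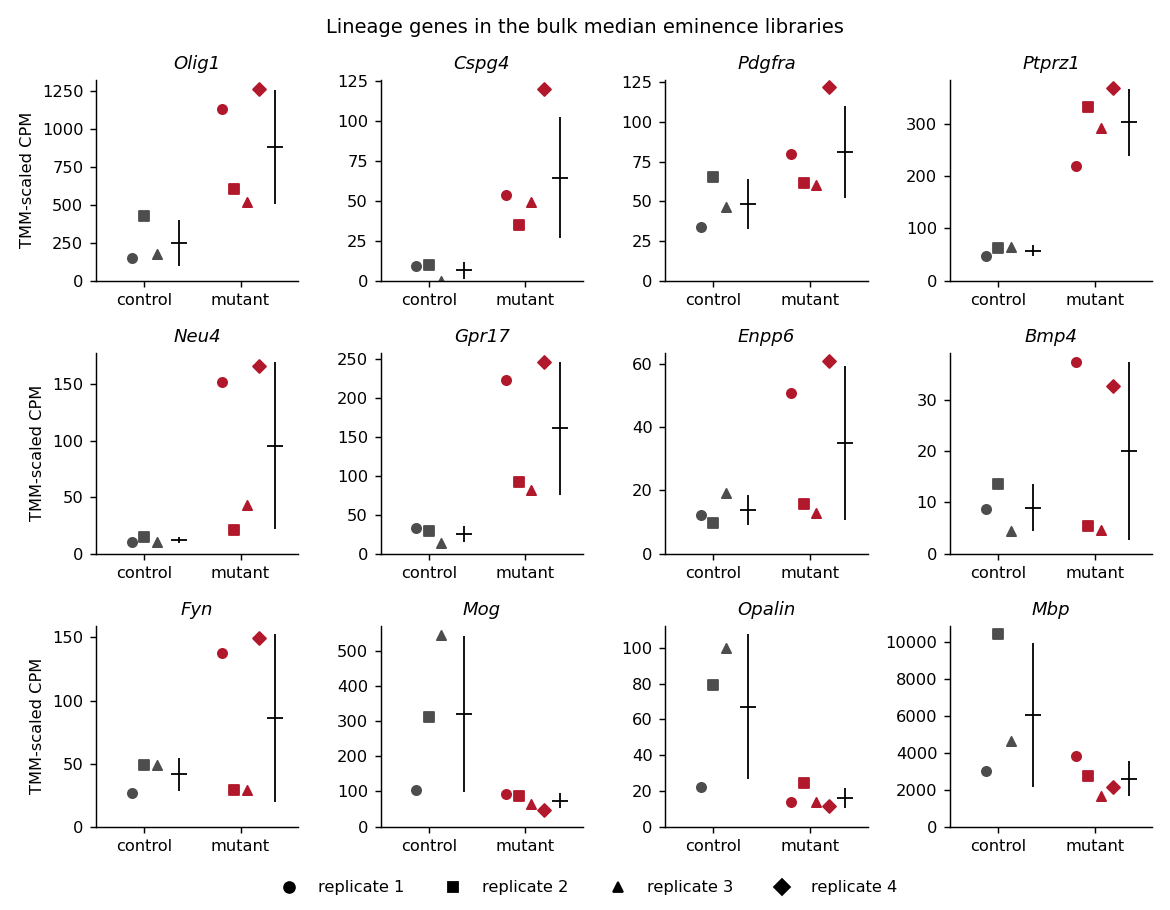
TMM-scaled CPM of 12 lineage genes in the 3 control and 4 mutant bulk libraries (each symbol a library, lines the mean with SD). Ptprz1, Gpr17, Cspg4 and Olig1 lie higher in every mutant than in every control, Enpp6, Bmp4 and Fyn are high in mutants 1 and 4 only, and Mog is lower in every mutant than in every control.

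Markers of other cells also differed between the libraries, and their part in these values was not tested. All counts of markers higher or lower here are at an unadjusted p under 0.05 (edgeR). By that limit 4.23% of all genes were higher and 3.89% lower. Astrocyte markers were higher at an unadjusted p under 0.05 in 4 of 7 and lower in none, and summed to 1478, 4879 and 4872 CPM in the controls and 4507, 2087, 2437 and 3324 CPM in the mutants, with Gfap the most abundant. Macrophage and microglia markers were lower in 4 of 9 and summed to 1073, 3407 and 2438 CPM in the controls and 1604, 668, 769 and 1209.6 CPM in the mutants, led by C1qb. Markers of vascular and leptomeningeal cells, which also carry Pdgfra, were lower in 3 of 6 and summed to 1208, 2825 and 3031 CPM in the controls and 914, 614, 576 and 487 CPM in the mutants, led by Dcn. Pars tuberalis markers were lower in 3 of 6 and summed to 13262, 4629.8 and 2480.1 CPM in the controls and 3238, 2241, 4164 and 802 CPM in the mutants, led by Chga and highest in control 1. Endothelial markers were lower in 2 of 7 and summed to 467, 344 and 268 CPM in the controls and 171, 103, 184 and 125 CPM in the mutants, led by Plvap. Of the 53 G2 and M phase genes, 3 were higher and none lower at an unadjusted p under 0.05, a share near the 4.23% of all genes. Their median log2 fold change was 0.91, with 43 positive and 10 negative. In 7 of them every mutant lay above every control and in 0 below, beside 5.83% and 3.18% of all genes. Summed, they were at 1216, 1246 and 996 CPM in the controls and 1646, 1554, 1729 and 1604 CPM in the mutants. Every mutant sum thus lay above every control sum, with Tubb4b the most abundant. Mki67 itself was at 6.78, 3.73 and 17.2 CPM in controls 1 to 3 and 6.29, 1.77, 7.18 and 13.8 CPM in mutants 1 to 4 and overlapped between groups.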

How the data were processed

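The single-cell library was prepared with 10x Genomics 3′ reagents. The authors aligned and counted it with Cell Ranger (2.0.1 in the submitters' processing notes) on GRCm38 and deposited UMI counts for 27998 genes in 990 barcodes, with 3284 to 57119 UMIs per cell and 9846289 in all. Bulk libraries were prepared by Smart-seq2, which does not mark strand, and the authors deposited raw read counts per Ensembl gene (4928456 to 13816596 per library). The tool that counted these reads is not given in the sources used here.

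The cells and the gene lists were chosen with earlier results of these data known. UMIs were summed per class and scaled to CPM. Intervals were exact (Poisson or Clopper-Pearson, 95%) and covered counting error only. Genes needed at least 20 UMIs over the classes compared, a gene at 0 was set against 3 UMIs over its class, and no p-value was computed in the single-cell library. Bulk counts were tested with edgeR 4.0.16 (TMM, filterByExpr, quasi-likelihood, Benjamini-Hochberg) in R 4.3.3, and printed bulk CPM are TMM-scaled. Genes were to be named by a rule: the selecting and stage genes, in each list up to 4 of the most abundant members by class and the 2 smallest bulk p-values in each direction, and the 10 largest ratios per class. Not every gene of the rule is named, the rest enter as counts, and other listed genes were named after their values were seen. Scripts were tested on simulated data. Scrublet was run in scanpy 1.11.5. DESeq2 1.42.0 and the other alternatives are given in the closing section. Promoter sequences came from RefSeq (GRCm38.p6), and those of Olig1 and Sox10 were not used here. Some genes are not reported here.

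Controls and mutants share replicate numbers 1 to 3, but deviations of same-numbered libraries correlated at -0.45, -0.01 and -0.23. Control 1 and mutant 3, which differ in number, correlated at 0.42. These values gave no sign that the numbers pair the mice, but so few correlations cannot exclude it.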

Additional observations from a re-analysis of the deposited data

Results flagged for a closer look

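Among the 4 mutant libraries, 6 of 103 values had 1 library far from the others, judged by its gap to the nearest library over the whole range and Dixon's 95% critical value; chance gives about 1 in 20. Hes1, a Notch target, was highest in mutant 1 (38.2 CPM against 6.01 to 9.07; ratio 0.905). Fzd9, a Wnt receptor, was also highest in mutant 1 (52.9 against 14.1 to 15.2 CPM; 0.971), as were the summed ependymal markers (163 against 96.0 to 106 CPM; 0.853). Cenpf, a kinetochore gene, was highest in mutant 4 (22.7 against 9.38 to 10.7 CPM; 0.902), as were the summed mature subtype genes (8125 against 2506 to 3385 CPM; 0.844), most of them Ptgds. Notch2 was highest in mutant 2 (41.2 against 14.9 to 18.5 CPM; 0.861).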

How the results depend on the processing

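The number of members (100 to 127) and of cells per class stayed within 1.5 times in all 15 checks of them, and the counts of genes and bulk calls in 22 of 37. With at least 50 UMIs per gene, 291 genes were 4-fold higher in precursor and 108 in committed cells (762 and 182 at 20 UMIs). With a limit of 2-fold, 1998 were higher in precursor, 904 in mature and 764 in committed cells, and 2678 in the lineage against other cells. Thinning each cell to 3000 UMIs moved 14 of 36 shares of cells with a UMI beyond their interval, among them those of Olig2 in all 3 classes, Gpr17 in precursor and Enpp6 in mature cells. In bulk, the count of genes at an adjusted p under 0.05 was 0 with edgeR and TMM, 1 with upper-quartile scaling, 3 with library sizes alone, 13 with at least 10 counts in every library, 240 with no filter, 1 with detected genes as a covariate, 0 without the 2 libraries with Xist RNA, 210 without the 3 libraries with the fewest detected genes (which leaves 1 control, assumed to vary like the mutants) and 360 with DESeq2. Leaving out 1 library gave 0 to 45 calls, 45 without control 1, 16 without control 3 and 0 for each other library. The cause of these differences was not tested. Library sizes alone moved the median log2 fold change of all genes to 0.25. With the replicate block, for which the check of the numbers found no sign of pairing, the count was 0. Of all 212 lineage genes tested, 72 changed sign under at least 1 of the alternatives that could be fitted (15 or 16 a gene) and 30 reached an adjusted p under 0.05 under at least 1; of the 72 named bulk genes, 7 and 24 did. The median of the cholesterol genes changed sign under 5 alternatives and that of the mature subtype genes under 1; those of the precursor genes (1.25 to 1.80) and of the myelin genes (-0.65 to -0.11) under none.

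The single-cell results rest on 1 library of pooled mice and describe 106 cells, so differences between mice are unknown. A gene with no UMI in the committed class could be present at up to 8.49 CPM. Free RNA of myelin genes was seen in most haemoglobin-rich cells. With 3 and 4 mice, of which controls 2 and 3 and mutant 1 stood apart, bulk folds of mature genes depended on these libraries.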

Other observations

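Growth factor receptors moved in both directions. Of the 20 listed, 10 could be compared between precursor and mature cells, with 2 at least 4-fold higher in precursor cells (Ntrk2 and Ntrk3) and 3 in mature cells (Fgfr2, Lpar1 and Ddr1), beside 11.7% and 7.37% of all genes compared; the other 5 differed by less. Fgfr2 was at 0, 11.3 and 136 CPM in precursor, committed and mature cells, and the lysophosphatidic acid receptor gene Lpar1 at 8.90, 93.4 and 554 CPM. Of 13 listed inhibitors of neurite growth and myelination, 8 could be compared, and Lingo1, an inhibitor of oligodendrocyte differentiation, was at 80.1, 34.0 and 0 CPM, whereas Rtn4 (Nogo) was at 169, 871 and 1437 CPM. These values come from the same cells that set the classes and carry no test.

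In bulk, no gene of the further lists passed the test. Several were higher in every mutant than in every control, and not all of these are named. Values here are log2 fold changes with their SE. Among them were the growth factor receptor gene Fgfr3 (1.35 ± 0.36, edgeR adjusted p 0.411) and the Notch modifier gene Lfng (1.22 ± 0.52, edgeR adjusted p 0.585). Others were the semaphorin gene Sema6d (1.15 ± 0.42, edgeR adjusted p 0.520) and the complement gene C4b (0.68 ± 0.26, edgeR adjusted p 0.530). Nasp, of the S phase list, was a further one (1.24 ± 0.36, edgeR adjusted p 0.440). The peptide transporter gene Tap1 (-1.17 ± 0.33, edgeR adjusted p 0.428) was lower in every mutant. So was the cell cycle inhibitor gene Cdkn1c (-2.28 ± 0.56, edgeR adjusted p 0.359). Cdkn1a, an inhibitor gene of the same list as Cdkn1c, ran the other way (log2 fold change 1.88, edgeR adjusted p 0.359). Of the 15 immune and stress genes, among them C4b, Tap1 and Cdkn1a, 7 were lower and 2 higher at an unadjusted p under 0.05. Their median log2 fold change was -0.69. Over all genes, 3.89% were lower and 4.23% higher by that limit.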
